A study of Homo sapiens with 2 samples.

Results

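The genes described here are 29 genes of cholesterol synthesis, of its control by sterols, and of the handling of cholesterol inside the cell, taken from a list of names by their known roles, with no measured value in the rule. All 29 were found by gene name in both expression tables, out of 26228 names that the tables share, and 28 of them reached a mean of 1 FPKM across the libraries, the limit for calling a gene expressed. The exception was SOAT2. Expression was measured by RNA sequencing in PLC cells, an established human liver cancer line, with 1 library from cells carrying the empty lentiviral vector pCDH (EV, genotype label WT) and 1 library from cells that carry human PRSS35 in the same vector (PRSS35), each line selected with puromycin. Both lines are labelled as untreated and are grown in DMEM with serum, and PRSS35, the only gene named in the genotype label, encodes a secreted member of the serine protease family.

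With 1 library per condition no difference has a replicate check, no p-value is given, and the effect of the transgene and variation from dish to dish cannot be told apart. In such bulk samples fewer cells of a kind and less RNA per cell cannot be told apart either. Values are FPKM, fragments scaled to transcript length and to the mapped total, a scale on which levels of different genes can be compared per length. The bounds after a value are those that Cufflinks gave it, together called its interval, and they reflect only how well that library's fragments were counted and assigned. A change is the log2 of (FPKM in PRSS35 + 1) over (FPKM in EV + 1), which understates changes of genes near or below 1 FPKM, and a fold is the plain ratio of FPKM with an interval from the counting error of both libraries. The transgene was at 0.643 FPKM with the empty vector and at 1836 FPKM in the PRSS35 line, which fits the labels. Of 9 hepatocyte markers 8 were expressed, with a sum of 3625 FPKM in EV and 5353 FPKM in PRSS35 cells that came mostly from SERPINA1 (2528 and 4239 FPKM), while TTR was low with 1.56 and 1.61 FPKM and FGB lay under 1 FPKM in both. Among these 8 genes 4 were higher and 2 lower with intervals apart, against 25.1% and 15.5% of all expressed genes. The lower were APOA1 (576.2 and 493.6 FPKM) and APOA2 (218.1 and 178.5 FPKM), and the median change of the 8 genes was 0.12. The part of these differences in the values below was not tested. The leukocyte markers PTPRC and CD3E and the fibroblast marker COL3A1 were listed at 0 in both libraries, the 3 endothelial markers summed to 0.0373 and 0.0307 FPKM, the 4 fibroblast markers to 1.75 and 2.03 FPKM, and the 5 leukocyte markers to 298.4 and 279.4 FPKM. Of the last sums 297.3 and 277.9 FPKM were CD68, a lysosomal protein that tumour cells can express too.

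Cholesterol is made from acetyl-CoA through mevalonate, which is turned into isoprenoid units that are joined to squalene, closed to the first sterol, lanosterol, and then trimmed to cholesterol. The supply is held in balance by SREBP transcription factors, which are kept in the endoplasmic reticulum by SCAP and the INSIG proteins while sterols are plentiful, and which travel to the Golgi, are cut and enter the nucleus when sterols run low. The liver is the main site of this pathway in the body, and much of the cholesterol that it makes leaves as lipoproteins or bile acids.

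In PRSS35 cells most of these genes were slightly higher than in EV cells, and few differed by much. The change was above 0 for 24 of the 29 genes (82.8%), against 60.2% of the 11118 expressed genes, and its median was 0.17 against 0.06 over all expressed genes. These 24 genes include SOAT2, which did not reach the limit for an expressed gene. The intervals lay apart for 17 genes, with 15 higher in PRSS35 cells (51.7%, against 25.1% of expressed genes) and 2 lower (6.90%, against 15.5%). Intervals are narrower relative to the value where more fragments were counted. The shares were not matched for level, and the part of level in them was not tested. At 25% or more, the same ratio being used downwards, 9 genes were higher (background 14.6%) and 1 was lower (background 9.59%). At 1.5-fold or more in the change only SOAT1 was higher and only GGPS1 was lower, which for 29 genes is near the background of 5.23% higher and 4.27% lower. As plain folds INSIG2 (1.57), STARD4 (1.95) and SOAT2 (4.00), all at low FPKM, passed 1.5 as well. With all changes centred on the median expressed gene, 20 of the 29 genes lay above 0 and 9 below, beside 50.0% of expressed genes above.

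**Figure D1:**
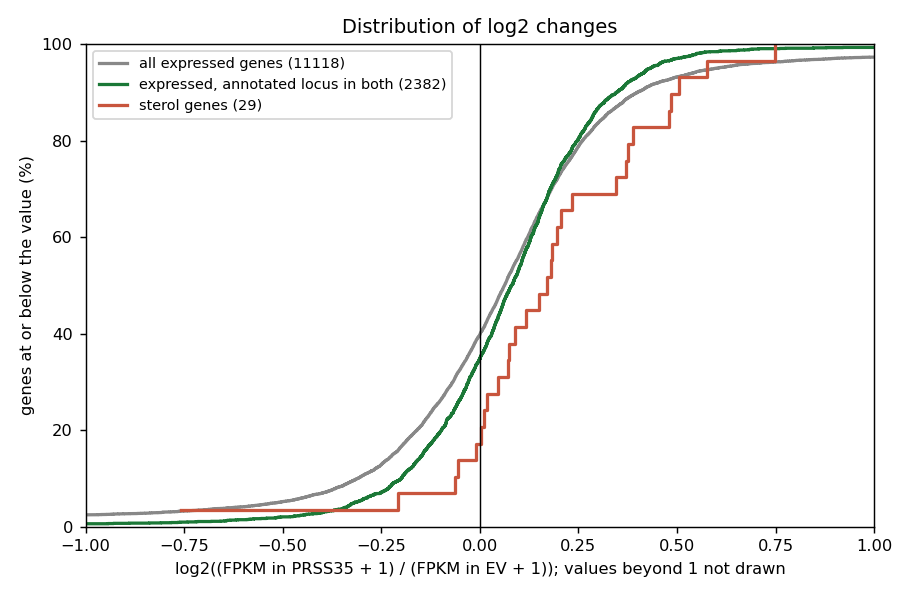
Cumulative distribution of the log2 change between PRSS35 and EV cells on the x axis (FPKM with a pseudocount of 1) for the 29 sterol genes, all 11118 expressed genes and the 2382 expressed genes that kept their annotated locus in both libraries, with the percentage of genes on the y axis. The curve of the sterol genes lies to the right of both others over most of its range and crosses them toward its ends, where GGPS1 at -0.76 and SOAT1 at 0.75 lie alone.

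The levels of the pathway spanned 499.2-fold in EV cells from STARD4, the lowest expressed gene, to FDPS, the highest. FDPS, which makes farnesyl diphosphate, was at 395.4 FPKM in EV cells, at percentile 96.0 of all expressed genes. In EV cells 7 genes had at least 100 FPKM, namely FDPS, TM7SF2, DHCR7, EBP, MVD, NPC2 and PMVK, and 9 genes were under 10 FPKM. The order of the genes was nearly the same in the PRSS35 library, with no gene moving by more than 3 ranks. Of the 28 pairs of neighbours in the EV order, 9 had intervals that overlap, such as NPC2 and PMVK, LSS and SCAP, or GGPS1 and HMGCS1, so that the order within these pairs is not resolved.

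**Figure D2:**
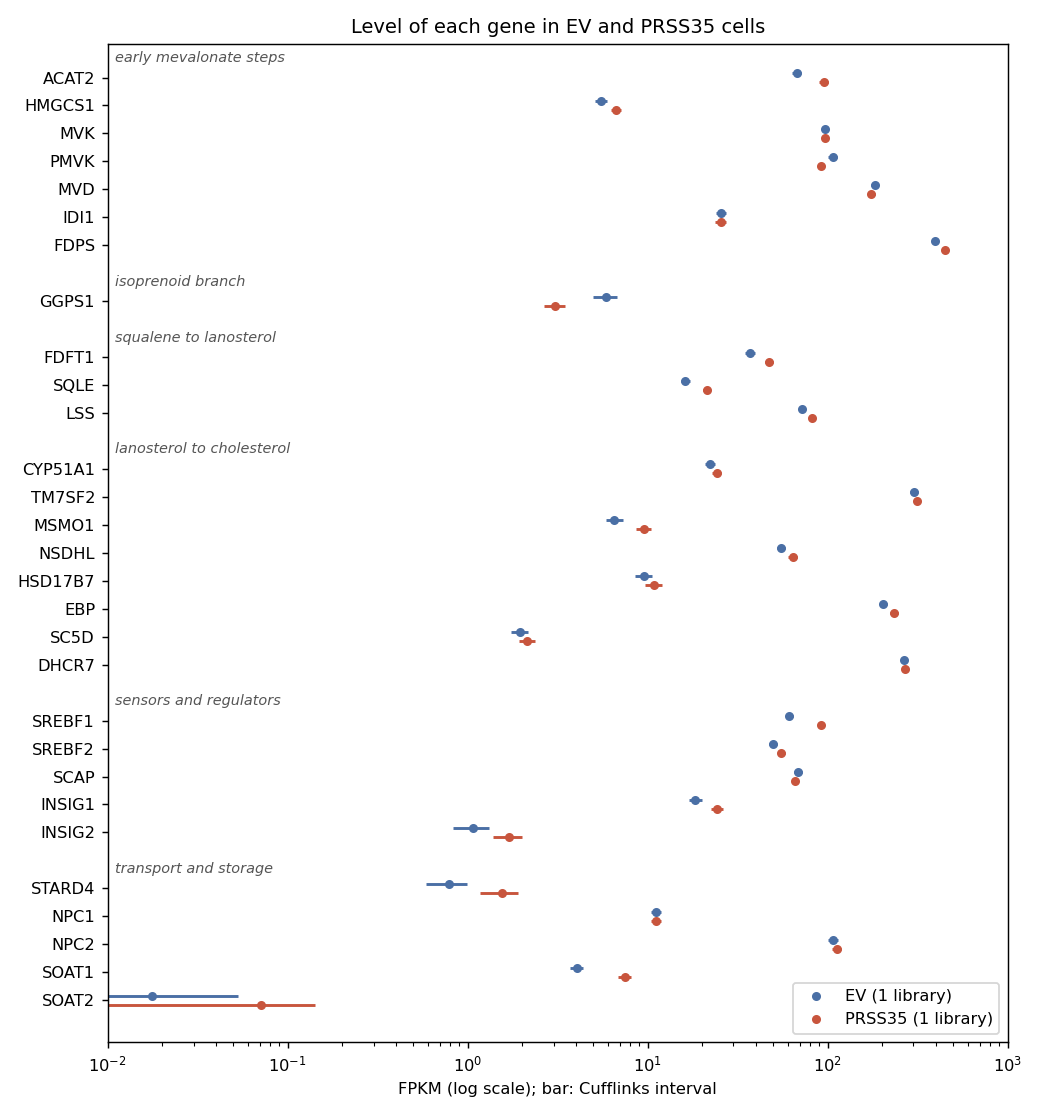
FPKM on a log axis for each of the 29 genes, ordered by role, in the EV library (blue) and the PRSS35 library (red), with the Cufflinks interval as a bar. The levels run from 0.0177 FPKM for SOAT2 to 448.9 FPKM for FDPS, and the distance between the libraries is small beside the distances between genes.

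The way in which Cufflinks built each locus bears on these values. In each library some loci keep the identifier of the annotated gene and others carry that of a locus assembled from the reads of that library. Of the 29 genes, 7 kept the annotated identifier in both libraries, 6 had an assembled locus in 1 library and 16 in both. The width of a Cufflinks interval gives the number of fragments that counting error of that size would need, called implied fragments here. It is not a read count, and it also shrinks where fragments cannot be assigned to a single transcript. Over the 2365 expressed genes that kept their annotation and have implied fragments in both libraries, the FPKM worth of 1 implied fragment had a median ratio of 1.00 between PRSS35 and EV, and it differed by over 25% in 2.54% of them. For the other expressed genes it differed by over 25% in 30.0%. At such a locus FPKM and implied fragments can move apart.

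The 7 genes that kept their annotation, HMGCS1, SQLE, CYP51A1, MSMO1, SC5D, INSIG2 and SOAT2, were all higher in PRSS35 cells, SOAT2 at levels near 0, where 65.2% of the 2382 expressed genes of this kind were higher. Their median change was 0.23, against 0.08 over those 2382 genes. The intervals lay apart for 4 of the 7 genes, HMGCS1, SQLE, MSMO1 and INSIG2, all higher in PRSS35 cells, against a background of 23.5% higher and 6.8% lower. Among the 22 genes with an assembled locus in either library, 17 were higher (77.3%) and the median change was 0.16. Over all expressed genes, whatever the state of their locus, 60.2% were higher and the median was 0.06.

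Promoters are shown for the genes with an annotated locus in each library, as far as the table used here holds them, and for SREBF2, which carries a sterol element. SREBPs bind sterol response elements and act on many promoters together with the CCAAT-binding factor NF-Y and with Sp1, which binds GC boxes. Each sequence holds the 200 bases before the first listed start of the gene in RefSeq, on GRCh38.p14 and 5′ to 3′, and capitals mark CCAAT or its reverse complement ATTGG and, in SREBF2, the sterol element core.
HMGCS1 (chr5:43313413-43313612, minus strand): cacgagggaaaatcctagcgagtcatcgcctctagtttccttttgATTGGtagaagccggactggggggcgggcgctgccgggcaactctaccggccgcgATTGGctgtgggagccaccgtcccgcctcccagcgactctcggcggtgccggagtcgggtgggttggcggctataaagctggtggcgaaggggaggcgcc
MSMO1 (chr4:165327469-165327668, plus strand): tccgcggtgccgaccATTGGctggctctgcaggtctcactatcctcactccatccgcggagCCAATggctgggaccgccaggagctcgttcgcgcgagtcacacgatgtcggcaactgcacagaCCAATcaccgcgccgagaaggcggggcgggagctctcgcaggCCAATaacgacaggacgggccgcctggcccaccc
SC5D (chr11:121292571-121292770, plus strand): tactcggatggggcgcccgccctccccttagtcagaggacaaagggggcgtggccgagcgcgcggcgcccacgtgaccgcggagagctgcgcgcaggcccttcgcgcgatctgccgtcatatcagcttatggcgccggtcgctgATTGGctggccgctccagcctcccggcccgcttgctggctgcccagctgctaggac
CYP51A1 (chr7:92134478-92134677, minus strand): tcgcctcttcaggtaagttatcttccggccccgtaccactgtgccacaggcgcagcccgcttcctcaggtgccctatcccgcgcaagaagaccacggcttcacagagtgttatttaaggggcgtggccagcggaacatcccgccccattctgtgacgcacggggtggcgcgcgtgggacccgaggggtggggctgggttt
INSIG2 (chr2:118088271-118088470, plus strand): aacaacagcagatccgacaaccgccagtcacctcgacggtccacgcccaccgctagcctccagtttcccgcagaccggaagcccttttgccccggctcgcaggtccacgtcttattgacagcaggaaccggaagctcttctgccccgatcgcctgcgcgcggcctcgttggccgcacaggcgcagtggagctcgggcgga
SREBF2 (chr22:41832905-41833104, plus strand): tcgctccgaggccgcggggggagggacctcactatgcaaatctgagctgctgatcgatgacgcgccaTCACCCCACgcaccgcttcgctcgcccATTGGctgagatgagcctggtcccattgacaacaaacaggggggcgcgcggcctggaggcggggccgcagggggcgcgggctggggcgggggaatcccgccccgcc

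HMGCS1 has 2 CCAAT boxes in this stretch, MSMO1 has 4 and SC5D and SREBF2 have 1 each, while CYP51A1 and INSIG2 have none. The sterol element core of SREBF2 has its first base at -133 from the start, and its CCAAT box at -106. RefSeq windows of 250 bases before to 50 after a start were matched by symbol for 25 of the 29 genes. CCAAT, read on both strands, was present in a window of 19 of these 25 genes (76.0%), against 43.1% of the 8179 expressed genes matched in the same way and 39.7% of all 27305 genes in the table. GGGCGG, the GC box, was present in 24 of the 25 genes, against 78.3% of the expressed genes. CACGTG, an E-box, was present in 4 of the 25 genes (16%, against 13.1%). The sterol element core TCACNCCAC was present only in SREBF2 among the 25 genes, against 1.38% of the expressed genes. These 4 motifs were searched on both strands, and a match of letters is not a binding site. Among the genes with a printed promoter, HMGCS1, MSMO1 and SREBF2, with CCAAT boxes, and INSIG2, without one in the printed stretch, had intervals that lay apart. SC5D, with a CCAAT box, and CYP51A1, without one in the printed stretch, had intervals that overlap.

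The first enzymes of the pathway run from acetyl-CoA to farnesyl diphosphate. Of the 7 genes listed here, 3 had higher values with intervals apart (background 25.1%), 1 was lower with intervals apart (background 15.5%), and 3 had intervals that overlap. ACAT2, the cytosolic thiolase that joins acetyl-CoA units, had an FPKM of 67.6 (bounds 63.8 and 71.4) in EV cells and 95.0 (bounds 90.0 and 99.98) in PRSS35 cells, a fold of 1.40 (1.30 to 1.52). This was the largest change of the 7 genes in either direction. The locus of ACAT2, on chromosome 6 of hg19 from 160182989 to 160200144, shares its last 615 bases with TCP1, which lies on the opposite strand and had 72.1 FPKM in EV and 75.2 FPKM in PRSS35 cells. Whether the counting used the strand is not given in the sources used here. The implied fragments of ACAT2 differed by less than its FPKM, with 1247 in EV and 1443 in PRSS35 cells, a fold of 1.16.

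HMGCS1, the synthase that adds the next acetyl unit, was among the lowest of these enzymes, with an FPKM of 5.53 (bounds 5.12 and 5.94) in EV cells and 6.68 (bounds 6.23 and 7.13) in PRSS35 cells. The fold was 1.21 (1.09 to 1.34), and the implied fragments had a fold of 1.18. FDPS was 395.4 FPKM (bounds 381.9 and 408.8) in EV cells and 448.9 FPKM (bounds 433.9 and 464.0) in PRSS35 cells, a fold of 1.14 (1.08 to 1.19) beside a fold of 1.03 in implied fragments. The annotation used here lists 8 pseudogenes of FDPS, so part of its reads may be hard to place.

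The kinases and the decarboxylase between these steps did not follow. MVK, mevalonate kinase, had 96.3 FPKM (bounds 92.6 and 99.9) in EV and 97.0 FPKM (bounds 92.9 and 101.0) in PRSS35 cells. The implied fragments of MVK were lower in PRSS35 cells, 2764 in EV and 2294 in PRSS35, a fold of 0.830. MVD, which removes carbon dioxide to give the isoprenoid unit, had 183.1 FPKM (bounds 174.6 and 191.6) and 175.3 FPKM (bounds 167.2 and 183.5). IDI1, which interconverts both isoprenoid units, had 25.7 FPKM (bounds 24.0 and 27.4) and 25.5 FPKM (bounds 23.8 and 27.2). For these 3 genes the intervals overlap, and their folds of 1.01, 0.958 and 0.992 have intervals that reach no lower than 0.897 and no higher than 1.09.

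PMVK, phosphomevalonate kinase, was 106.9 FPKM (bounds 101.1 and 112.6) in EV cells and 92.4 FPKM (bounds 89.0 and 95.8) in PRSS35 cells, a fold of 0.865 (0.810 to 0.923). Its locus was assembled in the EV library only, and its implied fragments went the other way, from 1385 in EV to 2970 in PRSS35 cells. On a side branch, GGPS1, which lengthens farnesyl diphosphate to the geranylgeranyl group used to anchor small GTPases, was the gene furthest below the others. It had an FPKM of 5.87 (bounds 4.97 and 6.77) in EV cells and 3.06 (bounds 2.65 and 3.47) in PRSS35 cells, a fold of 0.522 (0.426 to 0.639). Its implied fragments were 170.9 in EV and 222.5 in PRSS35 cells, so that this measure was higher where FPKM was lower. The FPKM worth of 1 implied fragment of GGPS1 in PRSS35 cells was 0.401 of that in EV cells, at a locus assembled in both libraries. The part of the transcript models in the values of PMVK and GGPS1 was not tested.

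All 3 enzymes that turn farnesyl diphosphate into lanosterol were higher in PRSS35 cells with intervals apart (background 25.1%), and their median change was 0.34. FDFT1, squalene synthase and the first enzyme committed to sterols, had 37.1 FPKM (bounds 34.9 and 39.3) in EV cells and 47.3 FPKM (bounds 44.7 and 50.0) in PRSS35 cells, a fold of 1.28 (1.18 to 1.39). SQLE, squalene epoxidase and a point of flux control, had 16.2 FPKM (bounds 15.3 and 17.1) and 21.3 FPKM (bounds 20.3 and 22.3), a fold of 1.31 (1.22 to 1.41). LSS, the cyclase that forms lanosterol, had 71.9 FPKM (bounds 69.2 and 74.5) and 81.6 FPKM (bounds 78.9 and 84.3), a fold of 1.14 (1.08 to 1.19). The implied fragments were higher in PRSS35 cells for all 3 genes, with folds of 1.13 for FDFT1, 1.34 for SQLE and 1.247 for LSS. SQLE kept its annotation in both libraries, while the loci of FDFT1 and LSS were assembled in both.

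**Figure D3:**
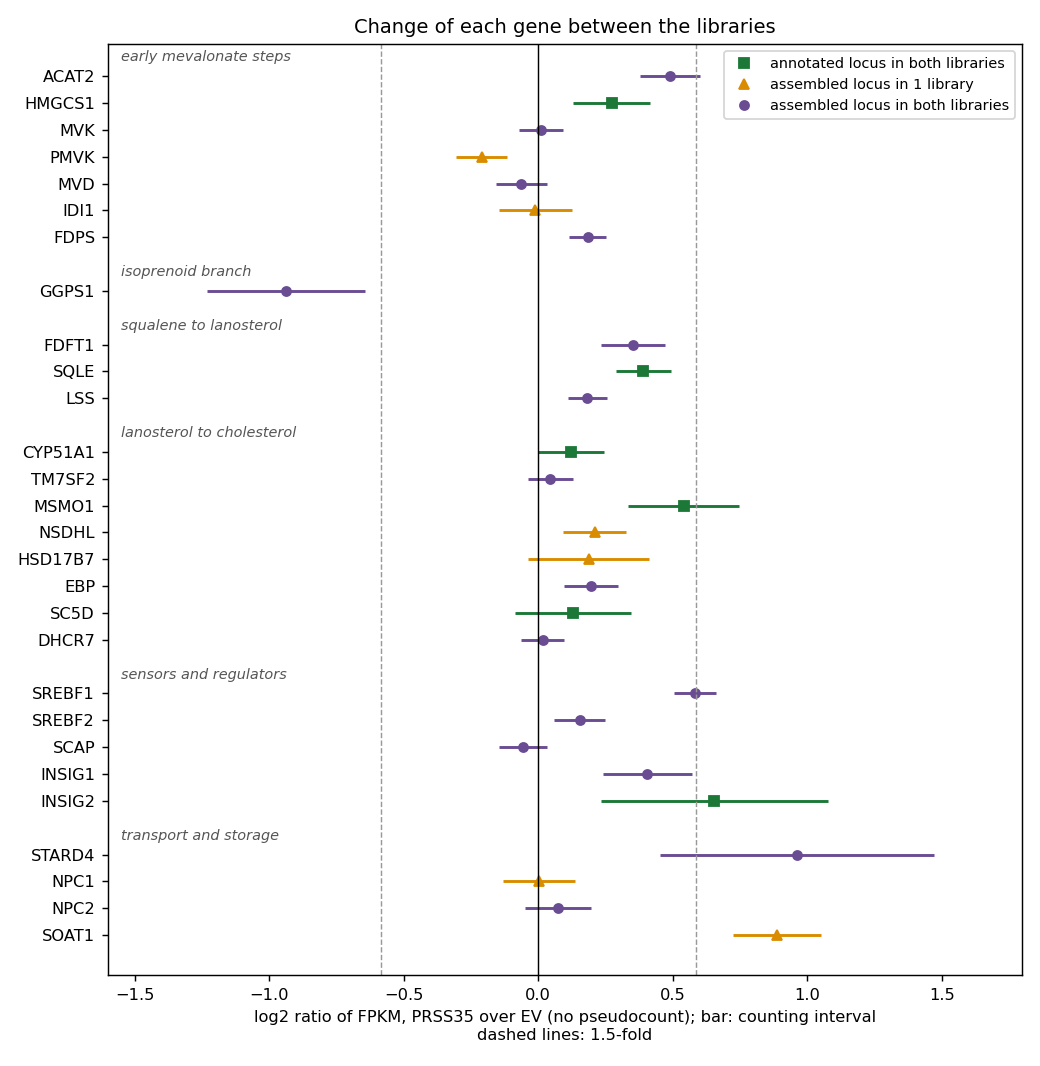
The log2 ratio of FPKM between PRSS35 and EV cells without a pseudocount on the x axis for each gene, ordered by role, with the interval from counting error as a bar and the state of the locus as colour and shape. SOAT2 is left out because its FPKM rests on about 1 and 4 fragments. GGPS1, with a fold of 0.522, stands alone on the left, the 3 genes from FDFT1 to LSS lie right of 0, and STARD4 and SOAT1 lie furthest to the right.

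All 8 enzymes listed from lanosterol to cholesterol had values above those of EV cells (background 60.2%), and the median change was 0.14. The intervals lay apart for only 3 of them, all higher (background 25.1%). With changes centred on the median expressed gene, TM7SF2 (-0.02) and DHCR7 (-0.05) lay below 0. MSMO1, which oxidises the methyl groups of the sterol ring, differed most, with 6.55 FPKM (bounds 5.84 and 7.25) in EV cells and 9.52 FPKM (bounds 8.63 and 10.4) in PRSS35 cells, a fold of 1.45 (1.26 to 1.68). Its implied fragments were 342.5 and 459.0, a fold of 1.34, at a locus that kept its annotation. NSDHL, which acts after MSMO1 on the same methyl groups, had 55.2 FPKM (bounds 52.1 and 58.3) and 63.9 FPKM (bounds 60.2 and 67.5), a fold of 1.16 (1.07 to 1.253), while its implied fragments had a fold of 0.975. EBP, the sterol isomerase, had 204.4 FPKM (bounds 194.3 and 214.5) and 234.3 FPKM (bounds 223.0 and 245.6), a fold of 1.15 (1.07 to 1.23), beside a fold of 1.04 in implied fragments.

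The other 5 enzymes had intervals that overlap. CYP51A1, the lanosterol demethylase, had 22.2 and 24.2 FPKM in EV and PRSS35 cells, a fold of 1.09 (0.999 to 1.18). HSD17B7, the ketone reductase of the demethylation steps, had 9.55 and 10.9 FPKM, a fold of 1.14 (0.975 to 1.33). A transcribed pseudogene copy, HSD17B7P2 on chromosome 10, may share reads with it, which was not measured here. SC5D, the desaturase, had 1.96 and 2.15 FPKM, a fold of 1.09 (0.942 to 1.27), and was the least expressed of the enzymes. DHCR7, which carries out the last reduction in one branch of the pathway, had 264.9 and 268.1 FPKM, a fold of 1.01 (0.957 to 1.07). TM7SF2, a sterol reductase, cannot be read apart from its neighbour VPS51, since both names share 1 locus of 302.3 FPKM in EV and 312.0 FPKM in PRSS35 cells, on chromosome 11 of hg19 from 64863530 to 64883707. For CYP51A1 the interval of the fold touches 1, and for the others it spans it.

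Of the 5 sensors and regulators, 4 were higher in PRSS35 cells with intervals apart (background 25.1%). The median change was 0.38, which fell to 0.14 when 5 FPKM in place of 1 was added before the log. SREBF1, which encodes the SREBP forms that mainly drive fatty acid genes, had an FPKM of 61.4 (bounds 58.9 and 63.9) in EV cells and 92.1 (bounds 88.7 and 95.4) in PRSS35 cells. The fold was 1.4996 (1.42 to 1.58), and the change of 0.58 lay just under the 1.5-fold limit on the scale with a pseudocount. Its implied fragments were 2447 and 3065, a fold of 1.253. The PRSS35 locus of SREBF1 is joined with that of the microRNA MIR6777, which lies inside the gene. SREBF2, which encodes the form that mainly drives cholesterol genes, differed less, with 49.7 FPKM (bounds 47.4 and 52.0) in EV cells and 55.3 FPKM (bounds 52.7 and 57.9) in PRSS35 cells, a fold of 1.11 (1.04 to 1.19), and its implied fragments had a fold of 1.02.

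INSIG1, an SREBP target whose protein holds SCAP in the endoplasmic reticulum, had 18.4 FPKM (bounds 16.9 and 20.0) in EV cells and 24.4 FPKM (bounds 22.5 and 26.4) in PRSS35 cells, a fold of 1.32 (1.18 to 1.49). The implied fragments of INSIG1 differed less, with 580.2 in EV and 644.5 in PRSS35 cells, a fold of 1.11. INSIG2, the second protein of this kind, was far lower, with 1.08 FPKM (bounds 0.828 and 1.32) and 1.69 FPKM (bounds 1.39 and 1.999), a fold of 1.57 (1.18 to 2.11). The intervals of INSIG2 nearly touch, and its bounds imply 76.0 fragments in EV and 122.5 in PRSS35 cells. SCAP, the escort of SREBP, had 68.5 FPKM (bounds 65.3 and 71.7) and 65.8 FPKM (bounds 63.1 and 68.6), so its intervals overlap, and its implied fragments were higher in PRSS35 cells with a fold of 1.28.

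Among the genes of transport and storage, 2 of 5 had intervals apart, both being higher in PRSS35 cells (background 25.1%). SOAT1, which esterifies cholesterol for storage in droplets, showed the largest change upward of the 29 genes on the log2 scale with a pseudocount, 0.75, while that of GGPS1, -0.76, was about as large downward. It had an FPKM of 4.03 (bounds 3.70 and 4.35) in EV cells and 7.45 (bounds 6.86 and 8.05) in PRSS35 cells, a fold of 1.85 (1.65 to 2.07). Its implied fragments, however, were nearly equal, 609.6 in EV and 629.7 in PRSS35 cells, and the FPKM worth of 1 implied fragment had a fold of 1.79. The locus of SOAT1, on chromosome 1 of hg19 from 179262849 to 179327814, kept its annotation in the EV library and was assembled in the PRSS35 library. STARD4, a carrier that moves sterol between membranes, had 0.792 FPKM (bounds 0.587 and 0.997) and 1.54 FPKM (bounds 1.17 and 1.91), a fold of 1.95 (1.37 to 2.77). Its bounds imply 59.6 and 69.4 fragments, a fold of 1.16, so for STARD4 too the implied fragments differed far less than FPKM. The part of the transcript models in the values of SOAT1 and STARD4 was not tested.

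NPC1 and NPC2 hand cholesterol out of the lysosome, and neither differed beyond its interval. NPC1, the membrane protein, had 11.1 FPKM in both EV and PRSS35 cells, a fold of 1.00 (0.913 to 1.10), with 936.8 and 937.9 implied fragments. NPC2, the soluble partner, whose locus is joined with that of MIR4709, had 107.0 and 112.6 FPKM, a fold of 1.05 (0.965 to 1.15). SOAT2, the esterifying enzyme typical of hepatocytes and intestine, was close to undetected. Its 0.0177 FPKM in EV and 0.0707 FPKM in PRSS35 cells correspond to about 1 and 4 fragments, a ratio of 4.00 with an exact 95% counting interval from 0.396 to 197.0, so no difference in SOAT2 was detectable at this depth.

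Over the whole set, implied fragments were more numerous in PRSS35 cells for 24 of the 29 genes, SOAT2 with its few fragments among them, against 59.5% of the 10900 expressed genes with a value in both libraries. FPKM and implied fragments were both higher for 21 genes, and 3 genes, PMVK, GGPS1 and SCAP, had lower FPKM with more implied fragments. Of the 9 genes higher by 25% or more in FPKM, 4 were so in implied fragments as well, SQLE, MSMO1, SREBF1 and INSIG2. How many of all expressed genes were higher by both measures was not counted, so these counts have no background. For 6 of the 28 expressed genes (21.4%) the FPKM worth of 1 implied fragment differed by over 25% between the libraries, against 24.0% of all expressed genes. These 6 were PMVK, GGPS1, TM7SF2, SCAP, STARD4 and SOAT1.

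**Figure D4:**
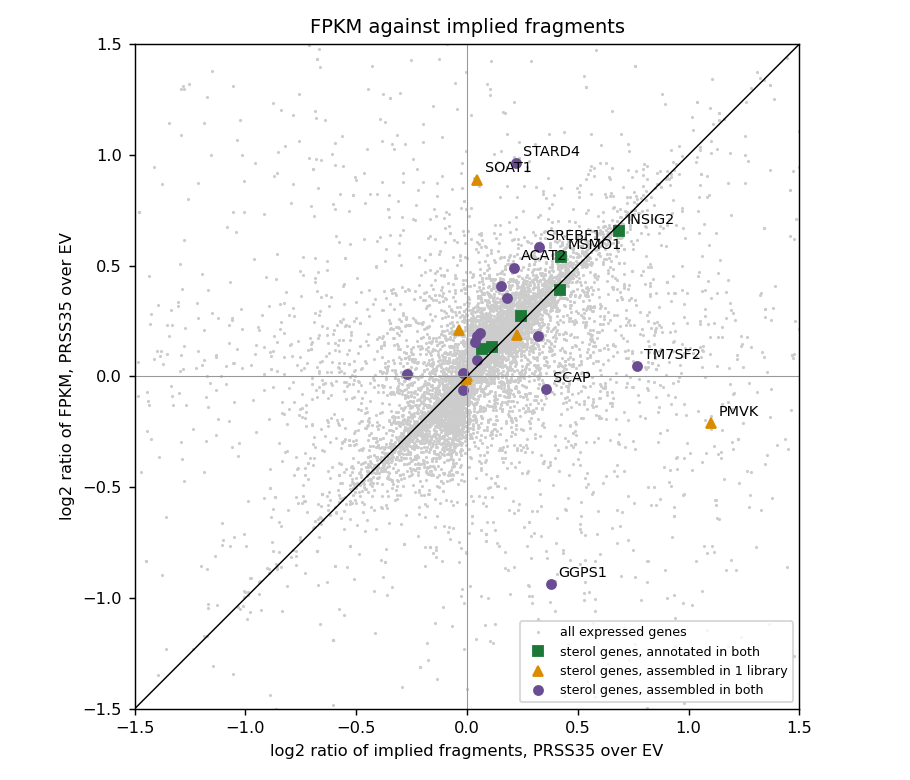
The log2 ratio of implied fragments (x axis) and of FPKM (y axis) between PRSS35 and EV cells, for all expressed genes within the axes (grey) and for the sterol genes by the state of their locus. The black line marks equal ratios. The annotated genes lie on or close to the line, SOAT1 and STARD4 lie above it, and GGPS1, PMVK, TM7SF2 and SCAP lie below it. SOAT2 is not drawn.

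Genes of the wider pathway were counted from lists fixed by name. Of 13 genes that process SREBP or act beside it in the endoplasmic reticulum, all of them expressed, 10 were higher in PRSS35 cells, 7 of them with intervals apart, and no gene with a value above 0 in both libraries was lower with intervals apart. Over all expressed genes 60.2% were higher, 25.1% higher with intervals apart and 15.5% lower with intervals apart. The median change of this list was 0.23. MBTPS1, the first of the proteases that cut SREBP in the Golgi, was its highest, with 13.3 FPKM (bounds 12.7 and 13.9) in EV and 20.2 FPKM (bounds 19.1 and 21.3) in PRSS35 cells, a change of 0.57, while its implied fragments had a fold of 0.808. Its partner MBTPS2 had 4.97 and 5.10 FPKM with intervals that overlap. RNF139, a ubiquitin ligase, had 3.96 FPKM in EV cells and was listed at 0 in PRSS35 cells, which can be a failed estimate, so no fold is given.

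Of the fatty acid genes, which SREBF1 mainly serves, most were also higher. Of 12 genes 10 were expressed, 9 of these were higher in PRSS35 cells, 7 with intervals apart and none lower with intervals apart, and the median change was 0.29. Over all expressed genes 60.2% were higher, 25.1% higher with intervals apart and 15.5% lower with intervals apart. The folds in implied fragments of the expressed genes of this list ran from 0.889 for ELOVL6 to 2.58 for PNPLA3. SCD, the desaturase that makes oleate, had 131.2 FPKM (bounds 125.5 and 136.9) in EV and 205.1 FPKM (bounds 196.3 and 213.8) in PRSS35 cells, a change of 0.64, with implied fragments at a fold of 1.04. FASN, the fatty acid synthase, was the lowest of the list with a change of -0.07, 215.8 and 205.2 FPKM, and intervals that overlap. The difference between this list and the cholesterol genes was not tested.

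Of 13 genes that use isoprenoids, 9 were higher, 3 with intervals apart, and 2 were lower with intervals apart, with a median change of 0.12, so that these shares lie near those of all expressed genes given above (60.2%, 25.1% and 15.5%). DHDDS, which helps to make dolichol, was the highest with a change of 0.90, from 12.4 to 24.1 FPKM, and PDSS1, which makes the tail of coenzyme Q, was the lowest with -0.41, from 6.94 to 4.96 FPKM. The implied fragments of DHDDS went the other way, with a fold of 0.662, and those of PDSS1 the same way, with a fold of 0.738. Of 14 further genes of sterol transport, 12 were expressed, 9 of them were higher, 6 with intervals apart, and 1 was lower with intervals apart, with a median change of 0.17. OSBPL2, an oxysterol-binding protein, was the highest expressed with a change of 0.80, from 9.76 to 17.7 FPKM beside a fold of only 1.04 in implied fragments, and VAPA, a tether at membrane contacts, was the lowest with -1.36, from 26.2 to 9.62 FPKM, while its implied fragments had a fold of 1.49. GRAMD1C, which moves plasma membrane cholesterol inward, missed the filter, with 0.0547 FPKM in EV and 1.77 FPKM in PRSS35 cells, at a locus assembled in the PRSS35 library only.

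Of 11 oxysterol and bile acid genes, 5 were expressed, and 3 of these were higher, 1 with intervals apart, and 1 was lower with intervals apart, with a median change of 0.08, again near the shares of all expressed genes. SLC27A5, which activates bile acids for conjugation, had a change of 1.45, from 13.8 to 39.5 FPKM, with a fold of 0.674 in implied fragments. NR1H3, an oxysterol receptor, was the lowest with -0.20, from 31.2 to 27.0 FPKM. CYP7B1 and CH25H, which hydroxylate cholesterol or its products, were listed at 0 in both libraries. Of the expressed genes outside the 29 that passed 1.5-fold in these lists and had a value in both libraries, SCD, DHDDS, OSBPL2 and SLC27A5 had loci assembled in both libraries, and VAPA had a locus assembled in EV only.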

How the data were processed

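RNA of 1 EV and 1 PRSS35 library was sequenced by the authors, who aligned reads to hg19 with TopHat2 2.1.0 and estimated transcripts with Cufflinks 2.2.1 (the submitters' processing notes name Cuffdiff). The deposited values are FPKM per locus, with a lower and an upper bound. Annotation release, options and strand use are not given in the sources used here, and read counts per gene were not used here.

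Names joined by commas were separated, 1261 rows per library on alternate or unplaced contigs were left out, and FPKM was summed per name. The limit for an expressed gene was a mean of 1 FPKM. Changes carry a pseudocount of 1 FPKM. The distance from FPKM to its upper bound was taken as 2 SD, and implied fragments are the square of FPKM over SD. Since each group has 1 library, no test was run. All genes of the list are named, and of the other lists the extremes and those past 1.5-fold. Members and lists were chosen with earlier results of these data known. Loci of all 29 genes overlap the gene of that name in GENCODE v44lift37. The calling of folds was tried on simulated counts with the same FPKM per fragment in both libraries. That simulation cannot show errors at loci where this worth differs, as it does at many assembled loci. Tables were handled with pandas 2.3.3 and numpy 2.4.6 under Python 3.11.15, exact intervals came from scipy 1.17.1, and plots from matplotlib 3.10.9.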

Additional observations from a re-analysis of the deposited data

How the results depend on the processing

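The median change of the 29 genes, 0.17, lay between 0.11 and 0.23 under every alternative but 1. Dividing by the total of every locus shifted the expressed-gene median from 0.06 to 0.69 and that of the 29 genes to 0.85, with 26 genes higher and 0 lower by 1.5-fold, and 27 higher and 0 lower with intervals apart. From 15 higher and 2 lower with intervals apart, centring on the median expressed gene left 12 and 2, and upper quartile scaling 10 and 3. The shares of all expressed genes with intervals apart were not computed on these scales. From 1 higher and 1 lower at 1.5-fold, the counts were 3 higher when 0.1 FPKM was added before the log, 0 and 0 when 5 FPKM was added, 2 higher after division by the sum over named loci, 0 lower at a mean FPKM of at least 5 (24 genes left, 1 with intervals apart and lower), 0 and 0 at 2-fold, and 9 higher at 25%. Among the 7 genes with the annotated locus in both libraries 0 and 0 passed 1.5-fold in the change, and 4 higher and 0 lower had intervals apart. As plain folds INSIG2 (1.57) and SOAT2 (4.00) passed 1.5. SOAT1 and GGPS1, which passed 1.5-fold in the change, are not among these 7 genes. Of the 2382 expressed genes of this kind 38 were higher and 37 lower by 1.5-fold, beside 581 and 475 of all 11118 expressed genes. With implied fragments in place of FPKM, an alternative chosen after seeing the data, 4 genes were higher and 0 lower by 1.5-fold. These 4 were PMVK, INSIG2, TM7SF2, whose locus is shared with VPS51, and SOAT2, with its few fragments. The share of all expressed genes past 1.5-fold by this measure was not counted. The median was 0.18, and the change of GGPS1 reversed from -0.76 to 0.38. PMVK changed sign too, from -0.21 to 1.10, as did, among others, SCAP (-0.06 to 0.355), MVK (0.01 to -0.27) and NSDHL (0.21 to -0.04). The cause was not tested. Of 318 values of single genes under alternatives, 44 moved beyond their counting interval, 27 of them with the sum over all loci and 14 with implied fragments, and 1, that of GGPS1, was classed as reversed. The sign changes of PMVK, SCAP, MVK and NSDHL were counted as moved.

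No paired analysis was possible because EV and PRSS35 were each sequenced as a single library. Depth limits SOAT2, with about 1 and 4 fragments, and makes the values of INSIG2 and STARD4 the least precise of the expressed genes.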

Other observations

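The microRNAs MIR33A, inside SREBF2, and MIR33B, inside SREBF1, were listed at 0 FPKM in both libraries, where their host genes had 49.7 and 61.4 FPKM in EV cells. The microRNA loci are only 69 and 96 bases long, so the 0 is not read as absence of these microRNAs. The antisense genes that overlap FDPS, CYP51A1 and STARD4, named RUSC1-AS1, CYP51A1-AS1 and STARD4-AS1, were listed at 0 in both libraries as well.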
